A study of Sus scrofa with 9 samples.

Results

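The small heat shock proteins HSPB1, HSPB6, HSPB8 and CRYAB (alphaB-crystallin) and the co-chaperone BAG3 are described here in transplanted pig kidneys. These 5 genes were taken from 12362 genes that had a probe set with 1 gene symbol in the array's annotation. Where a gene has several probe sets, the one used was selected by its mean log2 value, but each of the 5 had exactly 1. The genes themselves were named with earlier results of these arrays in view, group differences included, and their group values are therefore given as a description beside the fit across the whole array. All 5 lay above the dimmest 25% of probe sets (mean log2 value under 3.92). No genome positions are given because the genome build of the array design is not given in the sources used here.

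Small heat shock proteins are ATP-independent chaperones that hold unfolding proteins in a soluble state and bind cytoskeletal filaments. BAG3 joins them to the HSP70 chaperone machine. With HSPB8 as its preferred partner it directs damaged proteins, such as the actin crosslinker filamin C of muscle, to chaperone-assisted selective autophagy (CASA). HSPB1 and CRYAB are known for induction by heat, ischemia and, in the kidney medulla of rodents, hypertonicity.

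Gene expression was measured with 1 Affymetrix array per animal in kidney biopsies from 9 male Yorkshire pigs of 30 kg. In every animal the right kidney had 30 min of warm ischemia, was removed and flushed, and was later returned to the same animal while the left kidney was taken out. NEVKP kidneys (n = 3) spent the 8 h before their return on a warm perfusion circuit outside the animal, the method called normothermic ex vivo kidney perfusion. SCS kidneys (n = 3) spent 8 h in static cold storage without flow. No Storage kidneys (n = 3) were re-implanted directly. The biopsies date from post-operative day 3, so warm ischemia, surgery and loss of the other kidney are common to all groups, and a kidney without them is not part of these comparisons. The deposited log2 intensities come from RMA, a procedure that corrects background, scales the arrays to each other and summarises the probes of a probe set. Levels of different genes are not set against each other, because the brightness of a probe set depends on its probes.

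Array medians ran from 5.70 to 5.80, and correlations between arrays across probe sets from 0.974 to 0.991. The medians were 5.77, 5.79 and 5.76 in NEVKP, 5.75, 5.80 and 5.74 in SCS, and 5.74, 5.70 and 5.71 in No Storage. To check the tissue, LRP2, the endocytic receptor megalin of the proximal tubule, had log2 values of 12.25, 11.42 and 12.30 in NEVKP, 12.08, 11.88 and 12.23 in SCS, and 12.42, 12.34 and 12.37 in No Storage. The array of NEVKP replicate 2 stood apart in markers of the medulla. SLC14A1, a urea transporter of medullary vessels, had a log2 value of 8.46 there, against 3.46 to 4.21 on the other 8 arrays. The latter values lie around the dim limit of 3.92. A medulla and hypertonic response list had 8 measured genes, SLC14A1 among them. Their mean lay 1.33 above the No Storage mean on that array, against -0.21 to 0.07 on the other 8. SCS replicate 2 and NEVKP replicate 2 also had the lowest array weights, 0.46 and 0.57. Where leaving out either array moved a difference given below, of the 5 genes or of a gene on the 6 related lists, by over 1.5 times, the value without it is given as well. In a biopsy, fewer cells of a type and less RNA per cell cannot be told apart.

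The comparisons ask how a kidney perfused warm or stored cold differs on day 3 from one re-implanted directly, and how the 2 ways of preservation differ from each other. In limma, a linear model fitted to all 19124 probe sets with p-values adjusted over all of them by the Benjamini-Hochberg method, 0 of the 5 genes passed an adjusted p of 0.05 in any of the 3 comparisons. The share of all probe sets that passed was 0% for NEVKP against SCS, 0% for NEVKP against No Storage and 0.162% for SCS against No Storage (0.068% higher and 0.0941% lower in SCS). At an unadjusted p under 0.05 there were 2 of the 5 genes in each comparison, against 7.5%, 9.07% and 15.5% of all probe sets in the same order of comparisons. The words higher and lower below therefore describe these arrays, and the intervals are 95% intervals of the limma fit without adjustment for the number of genes.

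HSPB8 separated the 3 groups in the deposited values. Its log2 values were 5.25, 4.99 and 4.98 in NEVKP kidneys, 6.53, 5.93 and 5.98 in SCS kidneys, and 5.46, 5.90 and 5.60 in No Storage kidneys. All NEVKP arrays lay below all No Storage arrays, and all SCS arrays lay above them, the last by only 0.03 between the nearest arrays. These were SCS replicate 2 and No Storage replicate 2, with array medians of 5.80 and 5.70. With each array centred on its median, SCS and No Storage overlapped. The mean was 5.07 ± 0.15 in NEVKP, 6.15 ± 0.34 in SCS and 5.65 ± 0.23 in No Storage (SD, n = 3 each).

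NEVKP lay 1.07 below SCS for HSPB8 on the log2 scale (a log2 difference of -1.07, SE 0.19, 95% interval -1.49 to -0.66), a 2.11-fold lower intensity. The limma adjusted p was 0.314, and HSPB8 ranked as number 10 of 19124 probe sets by unadjusted p (0.000182). The nearest arrays of these groups were 0.68 apart. The log2 difference of HSPB8 was -0.58 for NEVKP against No Storage (SE 0.19, limma adjusted p = 0.444) and 0.50 for SCS against No Storage (SE 0.19, limma adjusted p = 0.238). These differences share the No Storage arrays. Without SCS replicate 1, the highest array, the SCS difference from No Storage was 0.31, and that of NEVKP from SCS was -0.88. Without NEVKP replicate 2, the NEVKP difference was -1.03 from SCS and -0.53 from No Storage.

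**Figure D1:**
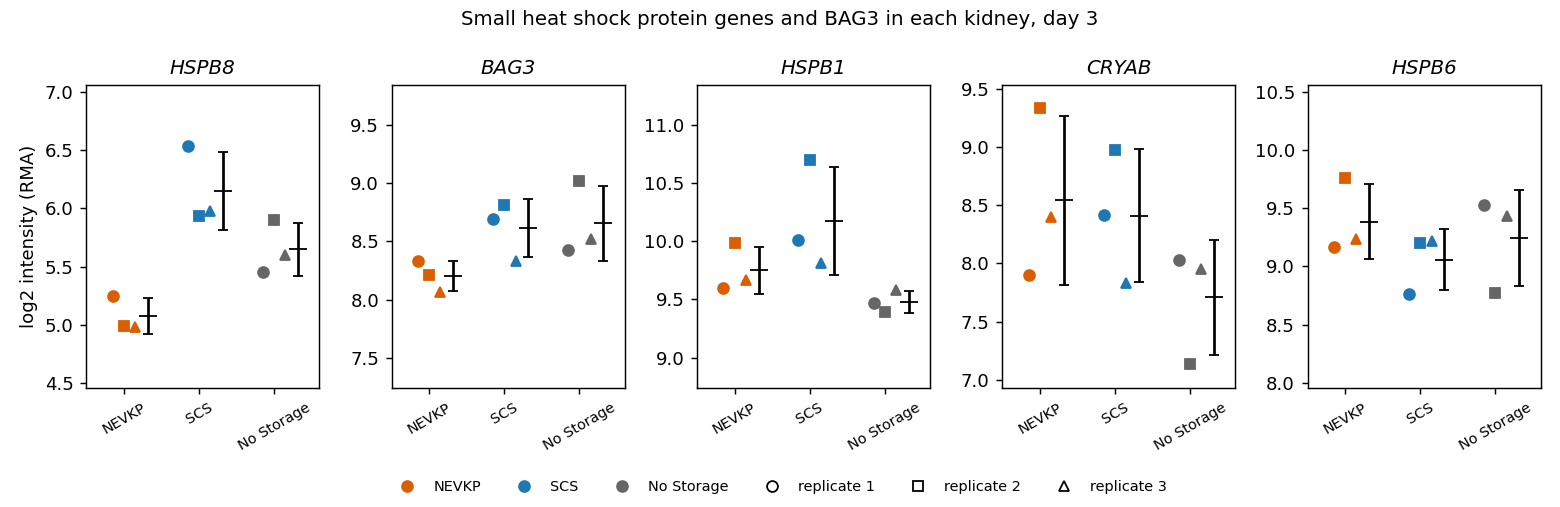
Log2 intensity of HSPB8, BAG3, HSPB1, CRYAB and HSPB6 in each kidney (vertical axes, each spanning the same number of log2 units), with NEVKP, SCS and No Storage kidneys along the horizontal axes. Points are single arrays with the replicate shown by shape, and black bars give the mean and SD (n = 3). For HSPB8 the NEVKP points lie at 4.98 to 5.25, the SCS points at 5.93 to 6.53 and the No Storage points at 5.46 to 5.90. The CRYAB groups overlap.

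BAG3, the partner of HSPB8, was lowest in the warm-perfused kidneys. Its log2 values were 8.33, 8.21 and 8.07 in NEVKP, 8.70, 8.81 and 8.34 in SCS, and 8.42, 9.02 and 8.52 in No Storage. The NEVKP arrays lay below both other groups, by 0.09 from the nearest No Storage array and by less than 0.01 (0.0079) from the nearest SCS array, whereas SCS and No Storage overlapped. The mean was 8.20 ± 0.13 in NEVKP, 8.61 ± 0.25 in SCS and 8.66 ± 0.32 in No Storage (SD, n = 3 each).

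For BAG3 the log2 difference was -0.41 for NEVKP against SCS (SE 0.19, 95% interval -0.82 to -0.0013, limma adjusted p = 0.664). It was -0.45 for NEVKP against No Storage (95% interval -0.87 to -0.04, limma adjusted p = 0.521), and -0.27 without No Storage replicate 2, whose BAG3 value was the highest of all arrays. For SCS against No Storage it was -0.04 (95% interval -0.45 to 0.37, limma adjusted p = 0.948), and it ran from -0.16 to 0.14 when single arrays were left out, with -0.14 without SCS replicate 2 and a turned sign without No Storage replicate 2 (0.14) or SCS replicate 3 (0.10).

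HSPB1 (HSP27), which caps and stabilises actin filaments and is phosphorylated downstream of p38 kinase, was highest after cold storage. Its log2 values were 9.60, 9.98 and 9.67 in NEVKP, 10.01, 10.69 and 9.81 in SCS, and 9.47, 9.39 and 9.58 in No Storage. SCS lay above No Storage on every array with a gap of 0.24, NEVKP lay above No Storage with a gap of 0.02, and NEVKP and SCS overlapped. With each array centred on its median, NEVKP and No Storage overlapped as well. The mean was 9.75 ± 0.21 in NEVKP, 10.17 ± 0.46 in SCS and 9.48 ± 0.09 in No Storage (SD, n = 3 each), so the spread within SCS was the widest.

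The HSPB1 difference of SCS from No Storage was 0.69 on the log2 scale (SE 0.21, 95% interval 0.22 to 1.17), a 1.62-fold higher intensity with a limma adjusted p of 0.161. Without SCS replicate 2, the highest array, it was 0.43 (limma adjusted p = 0.307). The difference of NEVKP was -0.42 from SCS (SE 0.21, limma adjusted p = 0.688), and -0.16 without SCS replicate 2. It was 0.27 from No Storage (95% interval -0.20 to 0.74, limma adjusted p = 0.749), and 0.15 without NEVKP replicate 2.

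CRYAB, which binds desmin and other intermediate filaments and is abundant in muscle, lens and kidney medulla, varied most within groups. Its log2 values were 7.90, 9.33 and 8.40 in NEVKP, 8.42, 8.97 and 7.83 in SCS, and 8.03, 7.13 and 7.95 in No Storage. NEVKP replicate 2, the array with high SLC14A1, was highest, No Storage replicate 2 was lowest, and all groups overlapped. The mean was 8.54 ± 0.73 in NEVKP, 8.41 ± 0.57 in SCS and 7.71 ± 0.50 in No Storage (SD, n = 3 each).

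The CRYAB difference from No Storage was 0.83 for NEVKP (SE 0.39, 95% interval -0.04 to 1.71, limma adjusted p = 0.564) and 0.70 for SCS (95% interval -0.18 to 1.58, limma adjusted p = 0.439). Without NEVKP replicate 2 the first was 0.44, and without No Storage replicate 2 it was 0.55. The SCS difference was 0.42 without SCS replicate 2 and 0.41 without No Storage replicate 2. NEVKP differed from SCS by 0.13 (95% interval -0.74 to 1.01, limma adjusted p = 0.944), which became -0.26 without NEVKP replicate 2 and 0.42 without SCS replicate 2. The sign of this difference also turned without SCS replicate 3. In the RefSeq gene table of the Sscrofa11.1 assembly the CRYAB gene model overlaps that of its neighbour HSPB2, and whether their probe sets share transcript sequence was not tested. HSPB2 had log2 values of 6.64, 7.11 and 6.75 in NEVKP, 6.74, 6.98 and 6.71 in SCS, and 7.21, 6.83 and 6.84 in No Storage, so its groups overlapped as well.

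HSPB6 (HSP20), a target of cyclic-nucleotide-dependent kinases that is known for smooth muscle relaxation, did not separate the groups. Its log2 values were 9.16, 9.76 and 9.23 in NEVKP, 8.76, 9.20 and 9.22 in SCS, and 9.52, 8.77 and 9.43 in No Storage. The highest array was again NEVKP replicate 2, and the groups overlapped. The mean was 9.38 ± 0.32 in NEVKP, 9.06 ± 0.26 in SCS and 9.24 ± 0.41 in No Storage (SD, n = 3 each). The log2 difference of NEVKP was 0.33 from SCS (95% interval -0.20 to 0.85, limma adjusted p = 0.76), and 0.14 without NEVKP replicate 2 or 0.18 without SCS replicate 1. It was 0.14 from No Storage (95% interval -0.38 to 0.66), where it turned to -0.04 without NEVKP replicate 2 and to -0.09 without No Storage replicate 2. SCS differed from No Storage by -0.18 (95% interval -0.71 to 0.34, limma adjusted p = 0.774), and by -0.42 to -0.03 when single arrays were left out, the first without No Storage replicate 2 and the last without SCS replicate 1.

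**Figure D2:**
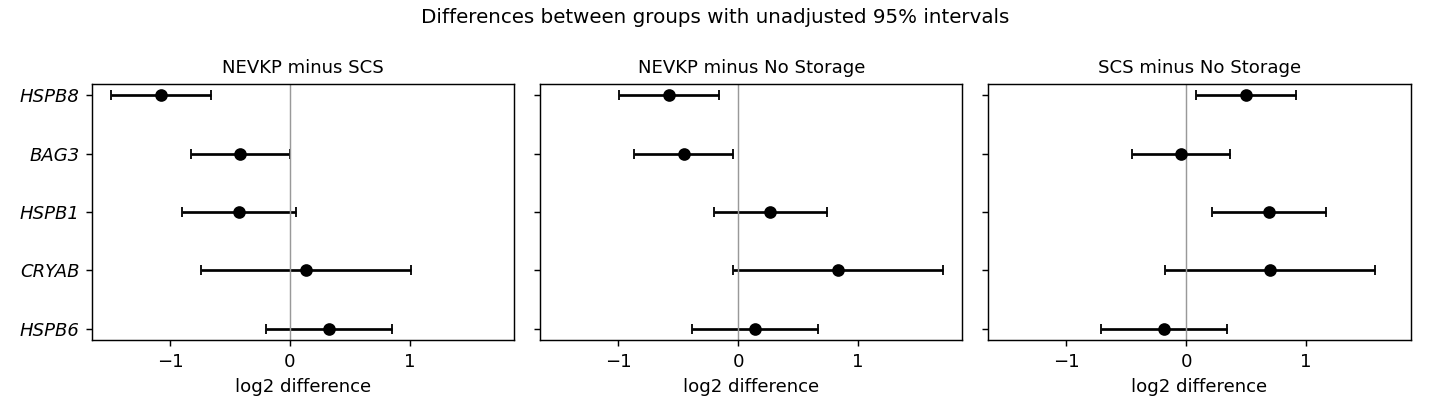
Log2 difference of each gene (horizontal axes) for NEVKP minus SCS, NEVKP minus No Storage and SCS minus No Storage, with unadjusted 95% intervals from limma (3 arrays a group, all 9 in 1 fit). The interval of HSPB8 lies on 1 side of zero in all panels, from -1.49 to -0.66 for NEVKP minus SCS. The intervals of CRYAB and HSPB6 include zero in all panels.

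Set side by side, arrays that did not overlap were found for 2 of 5 genes in NEVKP against SCS, both lower in NEVKP (HSPB8 and BAG3), beside 11.8% of all probe sets without overlap (5.01% higher and 6.78% lower in NEVKP). In NEVKP against No Storage they were found for 3 of 5, with HSPB8 and BAG3 lower and HSPB1 higher, beside 16.5% of all probe sets (7.94% higher and 8.57% lower). In SCS against No Storage they were found for 2 of 5, HSPB1 and HSPB8, both higher, beside 22.9% of all probe sets (11.3% higher and 11.6% lower). The median log2 difference of the 5 genes was -0.41, 0.14 and 0.50 in these comparisons, beside medians over all genes of -0.0045, -0.0070 and 0.00018. By mean, the groups ran NEVKP, No Storage, SCS from low to high for HSPB8, and No Storage, NEVKP, SCS for HSPB1. With each array centred on its median, the arrays overlapped for HSPB1 in NEVKP against No Storage and for HSPB8 in SCS against No Storage. The shares of all probe sets were not counted that way. Since the genes were chosen with these results known, the counts describe them and test nothing.

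Across the 9 arrays, HSPB8 and BAG3 varied together and HSPB1 and CRYAB varied together, each without passing adjustment over the 10 pairs of genes. The group differences known when the genes were named enter these coefficients, so their p-values are no independent test, and the coefficients after subtraction of the group means describe the arrays within groups. HSPB8 and BAG3 had a Pearson r of 0.72 (exact two-sided permutation p = 0.0298, adjusted 0.116) and a Spearman rho of 0.73 (exact permutation p = 0.0311, adjusted 0.184). Without the 2 arrays farthest from the HSPB8 median r was 0.68, and after subtraction of the group means it was 0.58. HSPB1 and CRYAB had an r of 0.73 (exact permutation p = 0.0263, adjusted 0.116) and a rho of 0.72 (exact permutation p = 0.0369, adjusted 0.184). For this pair r was 0.81 without the 2 arrays farthest from the HSPB1 median and 0.80 after subtraction of the group means. The arrays left out here were SCS replicates 1 and 2, so NEVKP replicate 2, the highest for CRYAB, was kept. HSPB8 and HSPB6 ran in opposite directions, with an r of -0.70 (exact permutation p = 0.0349, adjusted 0.116) and a rho of -0.60 (exact permutation p = 0.0968, adjusted 0.323), and r was -0.82 after subtraction of the group means. The other 7 pairs had unadjusted exact permutation p-values of 0.0664 or more for r. After subtraction of the group means, r was 0.69 for CRYAB and HSPB6 and -0.62 for BAG3 and HSPB6. Both were larger in size than the 0.58 of HSPB8 and BAG3. The remaining pairs then had r from -0.45 to 0.43. In the HSPB8 and BAG3 plot, the NEVKP arrays occupy the low corner for both genes, and SCS replicate 3 has a high HSPB8 value with a BAG3 value near those of NEVKP.

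**Figure D3:**
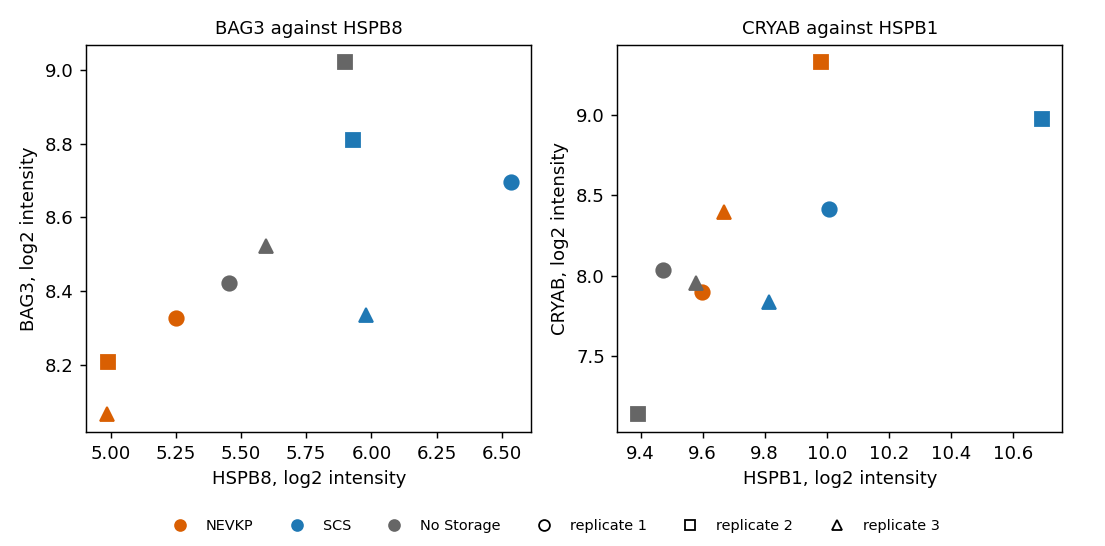
BAG3 against HSPB8 (left) and CRYAB against HSPB1 (right), both axes in log2 intensity, with 1 point per kidney coloured by group and shaped by replicate. Pearson r over the 9 arrays is 0.72 on the left, where the 3 NEVKP kidneys are lowest on both axes, and 0.73 on the right, where NEVKP replicate 2 and SCS replicate 2 have the highest CRYAB values.

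CRYAB and HSPB6 are shown beside the medulla marker because their highest value fell on the array of NEVKP replicate 2. That array had the highest log2 value for CRYAB (9.33) and for HSPB6 (9.76), and the highest smooth muscle and pericyte list mean, 0.71 above the No Storage mean, against -0.08 to 0.24 on the other 8 arrays. The smooth muscle and pericyte list had 14 measured genes, and its NEVKP arrays lay 0.24, 0.71 and 0.07 above the No Storage mean, its SCS arrays 0.0086, 0.15 and 0.06 above it. The part of these markers in the CRYAB and HSPB6 values was not tested. HSPB8 on that array was 4.99, within the NEVKP range, and its difference from SCS was as given above without it. The mean of 5 measured genes of skeletal muscle, a tissue rich in these chaperones, minus its No Storage mean was -0.22 to 0.09 in NEVKP, -0.16 to 0.0018 in SCS and -0.04 to 0.06 in No Storage.

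**Figure D4:**
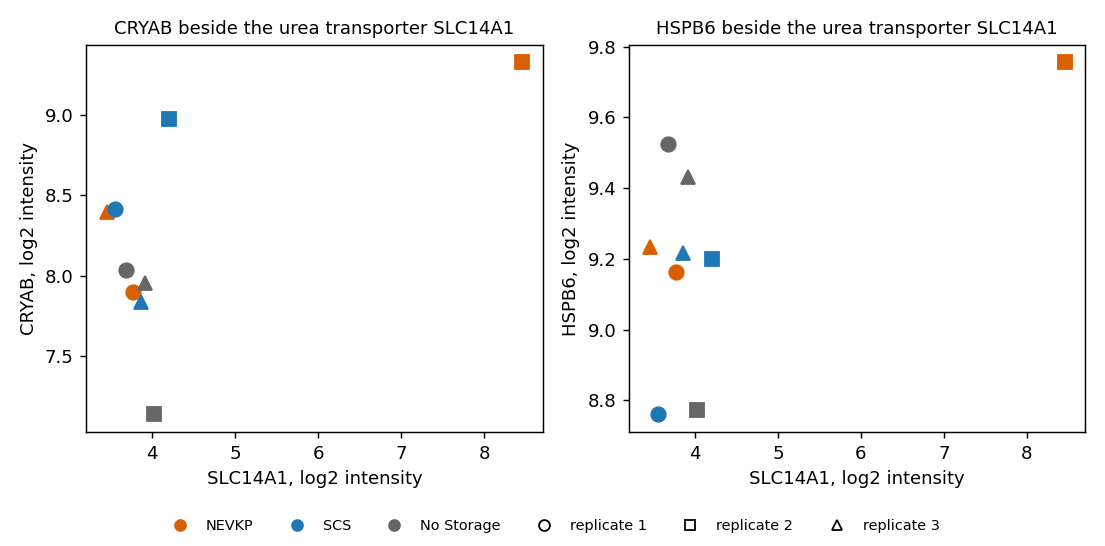
Log2 intensity of CRYAB (left) and HSPB6 (right) against that of the urea transporter SLC14A1 (horizontal axes), with 1 point per kidney coloured by group and shaped by replicate. NEVKP replicate 2 lies alone at an SLC14A1 value of 8.46 and has the highest CRYAB and HSPB6 values, while the other 8 kidneys lie between 3.46 and 4.21 on the horizontal axis. The latter range lies around the dim limit of 3.92.

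Markers of other cell types differed between the groups as well, and their part in the 5 genes' values was not tested. Each value here is an array's mean over a marker list minus the No Storage mean. For 11 monocyte and macrophage genes it was 0.48 to 0.85 in NEVKP, 0.18 to 0.71 in SCS and -0.04 to 0.07 in No Storage, and for 6 neutrophil genes, 3 of them dim, 0.06 to 0.39 in NEVKP, 0.55 to 0.83 in SCS and -0.14 to 0.14 in No Storage. Tubule markers lay lower than in No Storage after cold storage, and those of the collecting duct and proximal tubule also after warm perfusion. The 8 loop of Henle and distal nephron genes had -0.29 to 0.10 in NEVKP, -0.99 to -0.42 in SCS and -0.10 to 0.09 in No Storage. For them SCS stood below both other groups, while for the neutrophil genes it stood above both. HSPB8 also stood above both in SCS, and a link to either list was not tested. For 16 collecting duct genes the value was -0.49 to -0.36 in NEVKP, -1.13 to -0.49 in SCS and -0.03 to 0.03 in No Storage, and for 14 proximal tubule genes -0.71 to -0.09 in NEVKP, -0.70 to -0.25 in SCS and -0.04 to 0.05 in No Storage. For 5 fat genes it was -0.50 to -0.29 in NEVKP, -0.68 to -0.28 in SCS and -0.06 to 0.11 in No Storage. The arrays of all groups overlapped for 7 podocyte, 7 endothelial and 6 urothelial genes. Of the genes on all 12 marker lists, 1 passed in limma over all probe sets, the smooth muscle list's CASQ2, a calcium store protein. It was lower in SCS than in No Storage. In the same comparison, 10 of the 14 smooth muscle and pericyte genes had a positive difference, with a median of 0.32 beside 0.00018 over all genes. At an unadjusted p under 0.05 in limma, 4 of them were higher and 1 lower, beside 15.5% of all probe sets.

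Genes related to these chaperones were followed in 6 lists written from general knowledge, but with earlier results of these arrays known. Counts within the lists therefore describe these arrays and are no independent test. Of the 82 listed genes, 57 had a named probe set. In limma 0 of the 57 passed over all probe sets in any comparison. Counts at an unadjusted p under 0.05 are given per list below and stand beside the 7.5% of all probe sets for NEVKP against SCS, 9.07% for NEVKP against No Storage and 15.5% for SCS against No Storage.

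Of the other small heat shock proteins, 4 of 7 were measured, 2 of them dim (HSPB3 and ODF1), and 0 had an unadjusted p under 0.05. HSPB9, a testis-expressed member in humans, had the largest difference, -0.30 for NEVKP against SCS (limma adjusted p = 0.668). The other BAG family members had 4 of 5 measured and likewise 0 at an unadjusted p under 0.05. BAG4 was at -0.20 for NEVKP against No Storage (-0.12 without NEVKP replicate 3) and BAG6 at 0.19 for SCS against No Storage (0.10 without SCS replicate 2). BAG2 differed from No Storage by 0.14 in NEVKP (0.09 without NEVKP replicate 2) and 0.13 in SCS, and BAG1 by -0.08 in NEVKP (-0.13 without NEVKP replicate 2) and -0.12 in SCS, all with overlapping arrays. The list medians for these 2 families ran from -0.12 to 0.0011 over the 3 comparisons.

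Of 25 heat shock factors and cytosolic chaperones that HSF1 can induce, 17 were measured. The inducible HSP70 genes HSPA1A, HSPA1B and HSPA6 and the inducible HSP90 gene HSP90AA1 were not analysed here. The list median was -0.02 for NEVKP against SCS, 0.07 for NEVKP against No Storage and 0.0075 for SCS against No Storage. HSP90AB1, the constitutive cytosolic HSP90, had log2 values of 11.42, 11.43 and 11.32 in NEVKP, 11.65, 11.67 and 11.56 in SCS, and 11.28, 11.12 and 11.31 in No Storage. Its SCS arrays lay above both other groups, with a difference of 0.39 from No Storage (limma adjusted p = 0.146) and a NEVKP difference of -0.24 from SCS (limma adjusted p = 0.677).

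HSPA8, the constitutive HSP70, differed by 0.27 between SCS and No Storage (limma adjusted p = 0.34). HSPA4L, a nucleotide exchange factor of the HSP110 family known as an osmotic stress protein, differed by -0.51 (limma adjusted p = 0.239). The HSP40 gene DNAJB4 was higher in NEVKP, with log2 values of 7.47, 7.66 and 7.30 in NEVKP, 7.20, 7.03 and 7.07 in SCS, and 7.04, 7.24 and 6.997 in No Storage. All NEVKP arrays lay above all others. Its difference was 0.38 from SCS (limma adjusted p = 0.602) and 0.39 from No Storage (limma adjusted p = 0.456). HSF2, a heat shock transcription factor, differed by 0.39 between NEVKP and SCS (limma adjusted p = 0.648). HSPH1 differed by 0.37 between NEVKP and No Storage, and by 0.18 without NEVKP replicate 2. HSPA2 differed by -0.35, and by -0.16 without NEVKP replicate 3 or -0.61 without NEVKP replicate 1. The arrays overlapped for both. In this list 2 genes were higher and 0 lower at an unadjusted p under 0.05 in NEVKP against SCS, 1 and 0 in NEVKP against No Storage, and 1 and 1 in SCS against No Storage. For 17 genes these counts lie near the shares of all probe sets, 7.5%, 9.07% and 15.5%.

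Of 24 genes of chaperone-assisted selective autophagy and the pathways it touches, 19 were measured, with list medians of -0.07 for NEVKP against SCS, -0.01 for NEVKP against No Storage and -0.09 for SCS against No Storage. At an unadjusted p under 0.05, 1 was higher and 1 lower in NEVKP against SCS, 0 in NEVKP against No Storage, and 2 higher and 2 lower in SCS against No Storage, beside 7.5%, 9.07% and 15.5% of all probe sets. FLNC, filamin C, had log2 values of 5.17, 4.80 and 4.92 in NEVKP, 5.58, 5.53 and 5.15 in SCS, and 5.14, 4.90 and 4.88 in No Storage. Its mean was highest in SCS, as for HSPB8, while its NEVKP arrays overlapped those of No Storage. The FLNC difference was -0.46 for NEVKP against SCS (limma adjusted p = 0.599) and 0.45 for SCS against No Storage (limma adjusted p = 0.214).

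SYNPO2, an adaptor that links BAG3 to autophagosome membranes and is made in smooth muscle, had log2 values of 6.38, 7.52 and 6.64 in NEVKP, 6.21, 6.40 and 6.08 in SCS, and 6.71, 6.63 and 6.63 in No Storage. Its difference between NEVKP and SCS, 0.61 (limma adjusted p = 0.648), was 0.28 without NEVKP replicate 2. From No Storage, SYNPO2 differed by -0.43 in SCS and by 0.19 in NEVKP, the latter turning to -0.15 without NEVKP replicate 2. SQSTM1 (p62), the autophagy receptor of ubiquitinated proteins, differed by -0.31 between NEVKP and No Storage (limma adjusted p = 0.591), and by -0.20 without NEVKP replicate 2 or without No Storage replicate 2. VPS18, a tethering subunit for fusion with the lysosome, differed by -0.26 (limma adjusted p = 0.561). DYNLL1, a dynein light chain, differed by 0.41 between SCS and No Storage (limma adjusted p = 0.15) and by 0.23 between NEVKP and No Storage. EIF2AK1, a stress kinase of translation initiation, differed by -0.38 between SCS and No Storage (limma adjusted p = 0.274), and TSC2, an inhibitor of mTOR signalling, by -0.28 between NEVKP and SCS (-0.16 without SCS replicate 2).

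Among filaments that small heat shock proteins bind, 7 of 12 genes were measured, and the desmin gene DES and the vimentin gene VIM were not analysed here. All 7 had a positive difference between SCS and No Storage, with a median of 0.58 beside 0.00018 over all genes, and 4 had an unadjusted p under 0.05, beside 15.5% of all probe sets. The keratin gene KRT18, a filament subunit of simple epithelia, had log2 values of 8.08, 7.99 and 8.19 in NEVKP, 9.12, 9.27 and 8.56 in SCS, and 7.95, 7.98 and 7.74 in No Storage. It was thus highest in SCS on all arrays, with a difference of 1.09 from No Storage (limma adjusted p = 0.0513) and of -0.89 for NEVKP against SCS (limma adjusted p = 0.419).

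Its partner KRT8 differed by 0.90 between SCS and No Storage (limma adjusted p = 0.108), by 0.49 between NEVKP and No Storage and by -0.41 between NEVKP and SCS, the last being -0.11 without SCS replicate 2. ACTA2, smooth muscle actin, differed by 0.66 between NEVKP and No Storage (limma adjusted p = 0.456) and by 0.58 between SCS and No Storage (limma adjusted p = 0.26). ACTB differed by 0.19 between NEVKP and No Storage, and PRPH, peripherin, by -0.69 between NEVKP and SCS (limma adjusted p = 0.648), which was -1.07 without SCS replicate 1. The list median was 0.19 for NEVKP against No Storage and -0.14 for NEVKP against SCS.

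Of 9 genes for kinases that phosphorylate small heat shock proteins or act just upstream, 6 were measured. MAPKAPK2, the kinase of HSPB1, had log2 values of 9.07, 9.05 and 9.12 in NEVKP, 9.26, 9.44 and 9.22 in SCS, and 8.94, 8.80 and 8.90 in No Storage. These values had the same order of groups as HSPB1 and no overlap between any of them. The MAPKAPK2 difference was 0.43 for SCS against No Storage (limma adjusted p = 0.124), 0.20 for NEVKP against No Storage (limma adjusted p = 0.646) and -0.23 for NEVKP against SCS (limma adjusted p = 0.688). MAPKAPK3, a related kinase, differed by 0.23 between NEVKP and No Storage (0.14 without No Storage replicate 2) and by 0.25 between SCS and No Storage (0.15 without SCS replicate 2). PRKG1, the cyclic GMP-dependent kinase of smooth muscle, had log2 values of 6.24, 7.20 and 5.99 in NEVKP, so that its differences of 0.42 from SCS and 0.31 from No Storage rested on replicate 2. Without that array they were 0.06 and -0.05. PRKACA differed by -0.05 between NEVKP and SCS (-0.17 without NEVKP replicate 2), and PRKD1, whose probe set was dim, by 0.11 between SCS and No Storage (-0.0064 without SCS replicate 2). The list median was 0.14 for NEVKP against No Storage, 0.09 for SCS against No Storage and -0.02 for NEVKP against SCS.

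**Figure D5:**
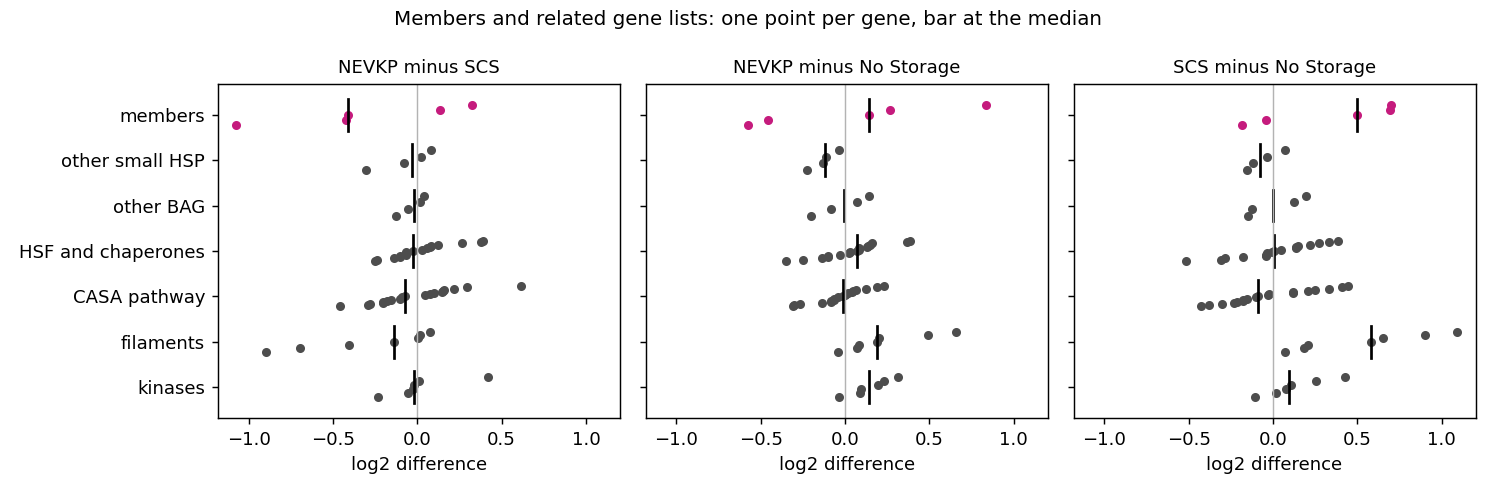
Log2 difference of each measured gene (1 point per gene, horizontal axes) for the 5 chaperone genes (top row, coloured) and the 6 related lists, with black bars at list medians. In the NEVKP minus SCS panel HSPB8 is the leftmost point at -1.07, and in the SCS minus No Storage panel all 7 filament genes lie right of zero with a median of 0.58.

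For each chaperone gene the 3 genes with the most similar pattern, by Pearson r over the 9 arrays, were sought among 9614 other named genes above the dimmest 25%. For HSPB8 they were ATG4D, a protease of autophagosome formation (r = 0.95), SRXN1, sulfiredoxin, an antioxidant enzyme (0.94), and the HSP90 co-chaperone FKBP4 (0.93). SRXN1 differed by -0.91 between NEVKP and SCS (limma adjusted p = 0.52) and by 0.52 between SCS and No Storage (limma adjusted p = 0.315). The log2 difference between NEVKP and SCS was -0.19 for ATG4D and -0.25 for FKBP4. For BAG3 they were the phosphodiesterase gene PDE4C (r = 0.95), the anaphase-promoting complex subunit ANAPC15 (0.89) and HSBP1, a protein that binds heat shock factor 1 (0.89). For HSPB1 they were the WNT receptor ROR2 (r = 0.98), BAG6 (0.97) and the transcription factor KLF3 (0.96). For CRYAB they were XBP1, a transcription factor of the unfolded protein response (r = 0.97), the phosphatase gene PTPN14 (0.97) and FAM171B (0.97). For HSPB6 they were SLC46A2 (r = 0.95), the gamma-secretase subunit APH1B (0.94) and SPACA9 (0.93). After subtraction of the group means these correlations ranged from 0.78 for ANAPC15 with BAG3 to 0.98 for BAG6 with HSPB1. These are the highest of many correlations over the same arrays and carry no test.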

How the data were processed

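The authors deposited log2 intensities for 19124 probe sets. The submitters' processing notes name RMA and limma 3.34.14. Filters and the genome build of the array design were not given in the sources used here. Probe sets were named from the array's annotation, where 13323 had 1 symbol, 357 several and 5444 none, and a gene was taken as its probe set with the highest mean. The gene IDs of all 5 genes have the same symbol in the RefSeq gene table.

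Each probe set was modelled on group alone over the 9 arrays, using lmFit, contrasts.fit and eBayes of limma 3.58.1 under R 4.3.3 (6 residual and 4.12 prior degrees of freedom). Benjamini-Hochberg adjustment ran over the whole array for each comparison. Each array is a different animal. The number of arrays limits the precision. Correlations were tested by exact permutation.

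The genes, the 6 related lists and the 12 marker lists were chosen with earlier results of these data known. Named list genes are those past the threshold and the up to 3 with the smallest unadjusted p per list and comparison, beside the 3 genes of highest r for each of the 5. The markers LRP2, SLC14A1 and CASQ2 fall outside this rule and were named after their values were seen. The sequence of a probe set, promoter or protein was not used here.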

Additional observations from a re-analysis of the deposited data

Results flagged for a closer look

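HSPB8 differed from No Storage in opposite directions in the 2 preserved groups: every NEVKP array lay below the No Storage mean and every SCS array above it. The difference between these effects is the log2 difference of NEVKP from SCS, -1.07. It was tested in limma and did not pass (adjusted p = 0.314, unadjusted p = 0.000182). HSPB8 was named with the group differences of these arrays in view, so these p-values are no independent test. Both effects share the 3 No Storage arrays.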

How the results depend on the processing

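Of the 15 log2 differences of the 5 genes, 12 kept their direction under all 17 alternatives, and none of the 5 genes passed an adjusted p of 0.05 in any comparison under any of them. For HSPB8 the difference of NEVKP from SCS ranged from -1.18 to -0.88, with limma adjusted p from 0.133 to 0.663. The sign turned for 3 differences on leaving out single arrays, namely NEVKP against No Storage for HSPB6 (range -0.093 to 0.28), NEVKP against SCS for CRYAB (-0.26 to 0.46) and SCS against No Storage for BAG3 (-0.16 to 0.14), and with SCS replicate 2 and NEVKP replicate 2 both left out, an alternative chosen after seeing the data, the log2 difference of HSPB6 was -0.044. The cause was not tested. Of the 57 related genes, 1 (KRT18) passed in SCS against No Storage with a trended and robust prior, array weights, the dimmest 25% left out, centred arrays or averaged probe sets per gene, and 0 to 1 passed on leaving out single arrays. The median r of the 10 gene pairs was 0.10, and -0.11 to 0.19 on leaving out single arrays. With the replicate number as a block, which the labels do not tie to any shared animal or day and for which same-numbered arrays correlated at -0.14 to 0.13, 0 of the 5 genes passed in each comparison and HSPB8 in NEVKP against SCS had a limma adjusted p of 0.603.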
